A study of Mus musculus with 6 samples.

Results

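The genes described here are 34 that encode the enzymes of cholesterol synthesis, the sterol regulatory element-binding protein (SREBP) system that drives them, transporters of cholesterol and the enzymes of fatty acid synthesis and desaturation. They were chosen by name, as known SREBP targets and parts of the same pathways, out of 55335 gene identifiers in the table. The choice was made with earlier results of these data known. The shares set beside all tested genes below therefore describe the list and do not test it. All 34 were found, with 1 row each. Their functions place 7 in the mevalonate steps, 11 between squalene and cholesterol, 5 in the SREBP system, 3 in transport and efflux, and 8 in fatty acid synthesis.

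Wild-type mouse embryonic fibroblasts (MEFs), adherent connective tissue cells, were grown in medium with serum. The medium used in the transwell is not given for this experiment in the sources used here, while in another transwell assay of the study cells were seeded without serum above medium with serum, so a difference in medium and the passage itself cannot be told apart. The Ctrl group was the parental cells. The Confine group was the cells that had crossed a transwell membrane with 3 μm pores, narrower than the nucleus, by 15 h after seeding. Polyadenylated RNA was sequenced and reads were counted on each gene. Only cells that crossed were collected, so differences present before the passage and differences that arose during it cannot be told apart. The labels name no clone and do not say whether the replicates were separate cultures, so p-values measure only the spread between these samples, which may be technical.

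The table has 3 Ctrl and 3 Confine columns, of which Confine replicate 1 and replicate 2 do not differ in any of the 55335 genes. They were counted as 1 library, called Confine 1/2, which leaves 3 Ctrl and 2 Confine libraries. Total counts were between 22287210 and 32537550 per library, and 3 counts, taken as the floor of detection, equal 0.101 to 0.128 CPM (counts per 1000000). Of 9 fibroblast markers, Vim, Col1a1, Col3a1 and Pdgfra were higher in Confine. Among all tested genes 12.8% were higher and 10.2% lower. The call of Col1a1 was lost without Ctrl 3 (adjusted p = 0.0800 by edgeR). Col1a2 and Pdgfrb did not pass the test (log2 fold changes of 0.24 and -0.36), and Dcn did not pass the filter on low counts. The summed level was 8074 to 8814 CPM in Ctrl and 14186 to 14868 CPM in Confine. Vim alone was at 3402 to 3523 CPM in Ctrl and at 6390 and 7225 CPM in Confine, so the sum mostly follows a few abundant genes. The fibroblast markers Thy1 and Lum did not exceed 3 counts in any library. Of 7 leukocyte markers, 4 (Ptprc, Adgre1, Itgam and Tyrobp) stayed at or under 3 counts in every library, while Cd68 and Csf1r were higher and Lyz2 lower. Csf1r had 20, 14 and 8 counts in Ctrl and 34 and 44 in Confine. Its call was lost in 4 of 5 fits with a library left out. The summed level of the leukocyte markers was 7.23 to 8.39 CPM in Ctrl and 18.3 to 25.9 CPM in Confine. The summed adipocyte markers were at 5.63 to 8.39 CPM and 6.49 to 8.62 CPM, and none of the 4 epithelial and 4 endothelial markers passed the filter on low counts. In RNA from many cells, fewer cells of a type and less RNA per cell cannot be told apart, and the part of these marker levels in the results was not tested.

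Cells make cholesterol from acetyl-CoA in the cytosol and endoplasmic reticulum, first as mevalonate, then as isoprenoid units that are joined to squalene, which is closed into a ring and trimmed to cholesterol. When cholesterol in the endoplasmic reticulum is low, the escort protein SCAP carries SREBP to the Golgi, where proteases free the part that enters the nucleus and switches on these genes. When sterols are plentiful, INSIG proteins hold SCAP back, and oxysterols activate the liver X receptors (LXR), which raise genes of cholesterol export and Srebf1. The Srebf2 product acts mainly on cholesterol synthesis and the Srebf1 product mainly on fatty acid synthesis.

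SREBP binds a sterol regulatory element in the promoters of its targets, usually beside a CCAAT box, which binds the factor NF-Y. The 150 bases before the transcription start are printed for 3 genes that were lower in Confine (Hmgcs1, Mvk and Fasn), for Sc5d, which did not pass the test, and for Abca1, which was higher. None of these stretches holds an annotated exon. They are RefSeq sequences of GRCm38.p6, written 5′ to 3′ on the strand of the gene. Capitals mark the letters TCACNCCAC, a core of the element, and CCAAT, each on either strand, where CCAAT on the other strand reads ATTGG.
Hmgcs1, chr13:119690201-119690350, plus strand: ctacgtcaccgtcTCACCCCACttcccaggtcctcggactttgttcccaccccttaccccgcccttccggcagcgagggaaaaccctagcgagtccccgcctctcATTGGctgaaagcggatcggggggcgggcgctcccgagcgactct
Mvk, chr5:114444119-114444268, plus strand: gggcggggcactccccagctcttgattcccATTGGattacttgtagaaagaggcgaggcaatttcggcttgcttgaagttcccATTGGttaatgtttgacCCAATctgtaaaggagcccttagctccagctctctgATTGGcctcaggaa
Fasn, chr11:120824548-120824697, minus strand: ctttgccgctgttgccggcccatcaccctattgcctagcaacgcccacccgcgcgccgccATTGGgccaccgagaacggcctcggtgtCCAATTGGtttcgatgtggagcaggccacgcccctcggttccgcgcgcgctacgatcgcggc
Sc5d, chr9:42264301-42264450, minus strand: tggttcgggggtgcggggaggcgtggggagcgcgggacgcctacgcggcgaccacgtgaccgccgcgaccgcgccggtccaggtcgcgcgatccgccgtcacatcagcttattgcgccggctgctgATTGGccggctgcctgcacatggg
Abca1, chr4:53159896-53160045, minus strand: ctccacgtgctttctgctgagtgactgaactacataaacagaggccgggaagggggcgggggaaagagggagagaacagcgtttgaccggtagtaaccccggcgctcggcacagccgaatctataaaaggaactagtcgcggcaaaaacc

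In the printed stretch of Hmgcs1 the element core began 137 bases and a CCAAT box 45 bases before the start. The printed stretch of Mvk held 4 CCAAT boxes, at 120, 67, 50 and 14 bases before the start. That of Fasn held 3, at 90, 62 and 59 bases, of which the last 2 overlap on opposite strands. In the longer windows searched next, CCAAT matched 4 times for Hmgcs1 and 5 times for Mvk. RefSeq windows of 250 bases before to 50 after the start were matched for 26 of the 34 genes, in 34 windows. Windows for Fdps, Fdft1, Sqle, Stard4, Abcg1, Scd1, Scd2 and Fads1 were not used here. Searched on both strands, CCAAT stood in 58.8% of these windows and in 37.4% of all 32851 windows. By gene, it was found in 9 of 13 that were lower in Confine, in 8 of 9 that did not pass the test and in 2 of 4 that were higher, so these letters did not separate the genes that fell from those that did not pass. The core TCACNCCAC was found only for Hmgcs1 among the 26 genes, and in 1.24% of all windows. The E-box CACGTG, a palindrome, stood in 20.6% of the windows of these genes and 7.15% of all windows, and the GC box CCGCCC in 73.5% and 35.7%. A match is a description of letters in a window, and SREBP sites vary from this core.

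Most of the sterol enzymes and of the fatty acid enzymes were expressed at a lower level in the cells that had crossed the pores. No gene of the SREBP system or of transport and efflux was called lower with TMM scaling and the identical columns counted once. All 34 genes were tested among 15881 genes with edgeR's quasi-likelihood test, and a gene was called lower or higher at a Benjamini-Hochberg adjusted p under 0.05. Abcg1 passed the filter on low counts through its Ctrl libraries only, and the other 33 genes passed it in either group. In Confine, 16 of the 34 (47.1%) were lower, against 10.2% of all tested genes, and 5 (14.7%) were higher, against 12.8%. Together 61.8% were called, against 23.0% of all tested genes. The other 13 genes did not pass the test. The fitted log2 fold change was negative in 29 of the 34, with a median of -0.53, against -0.0021 over all tested genes. The libraries of the groups did not overlap in 28 of the 34 (82.4%), against 49.5% of all tested genes. With an absolute log2 fold change above 1.5 also required, 1 gene was lower (Elovl6) and 1 was higher (Abca1), against 3.11% and 4.89% of all tested genes. The counts rested on the libraries used. Without Confine 3, 7 genes were lower and 2 higher, and without Confine 1/2, 12 were lower and 4 higher, where the lone Confine library is assumed to vary as the Ctrl libraries do. Scaled by library size alone, 21 were lower and 4 higher, with Srebf2 (adjusted p = 0.031) and Stard4 (0.0209) among those lower. TMM (trimmed mean of M values) sets the scale of each library from the bulk of its genes, and without it the median of all tested genes moved to -0.21, and 66.0% of all calls were lower, against 44.3% with TMM.

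**Figure D1:**
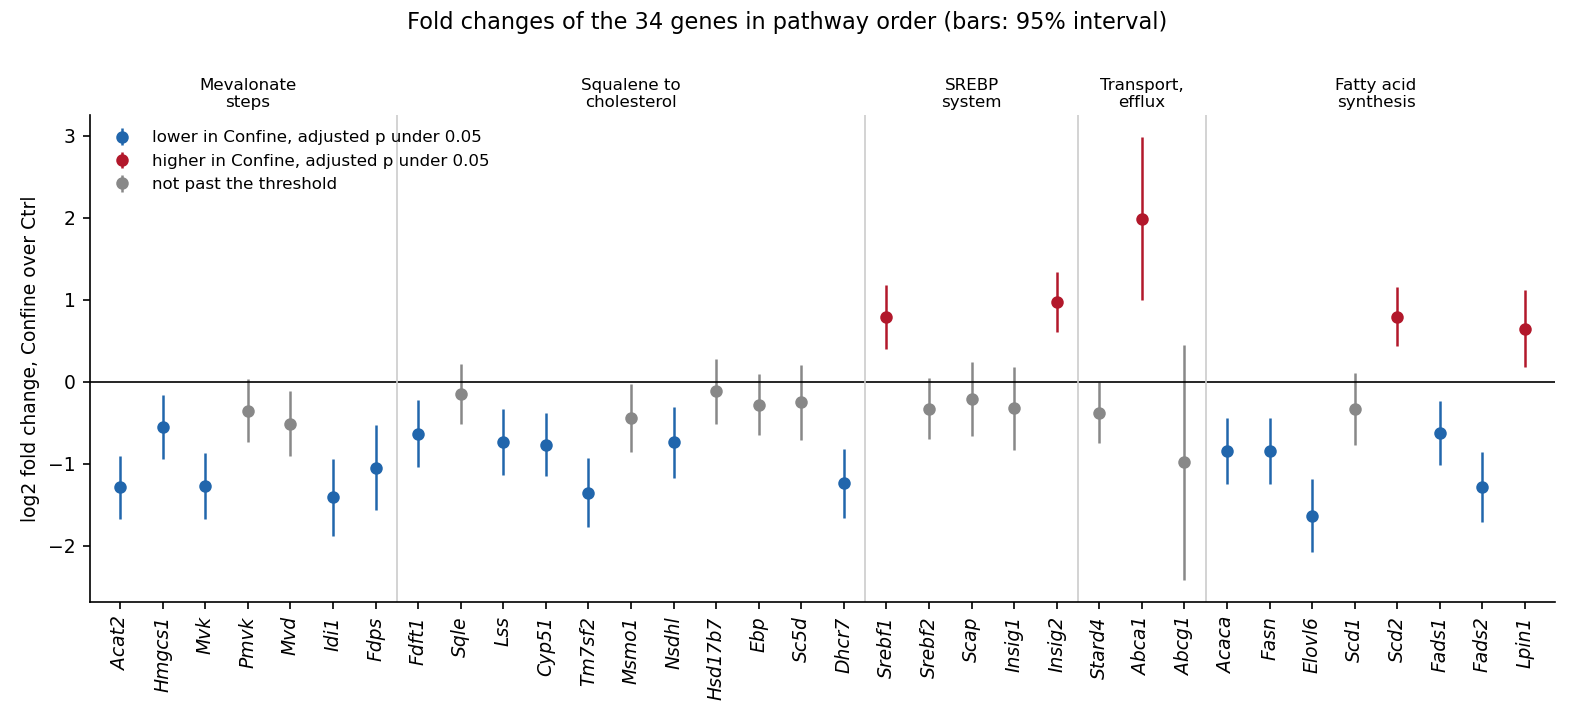
Log2 fold change of Confine over Ctrl for each of the 34 genes, in pathway order from left to right, with bars for the 95% interval of edgeR's fit. Blue points were lower (16 genes), red points higher (5 genes) and grey points not past an adjusted p of 0.05 (13 genes), and no sterol enzyme lies above 0.

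The 18 enzymes from Acat2 to Dhcr7 all had a negative fold change. By edgeR's quasi-likelihood test 11 were lower in Confine and 7 did not pass (13 were lower at an unadjusted p under 0.05, 12 by DESeq2 and 11 by limma-voom). The number higher was 0 in each of these 4 readings. The median log2 fold change was -0.68. In 16 of the 18 both Confine libraries were below all 3 Ctrl libraries. Among all tested genes the groups were apart in 49.5%, counted in either direction, and the share for the lower direction alone was not computed. Taken library by library, the median log2 deviation of the 18 enzymes from their Ctrl means was -0.02, 0.03 and 0.0098 in the Ctrl libraries, -0.52 in Confine 1/2 and -0.78 in Confine 3. The median moved to -0.54 without Confine 3 and to -0.79 without Confine 1/2.

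**Figure D2:**
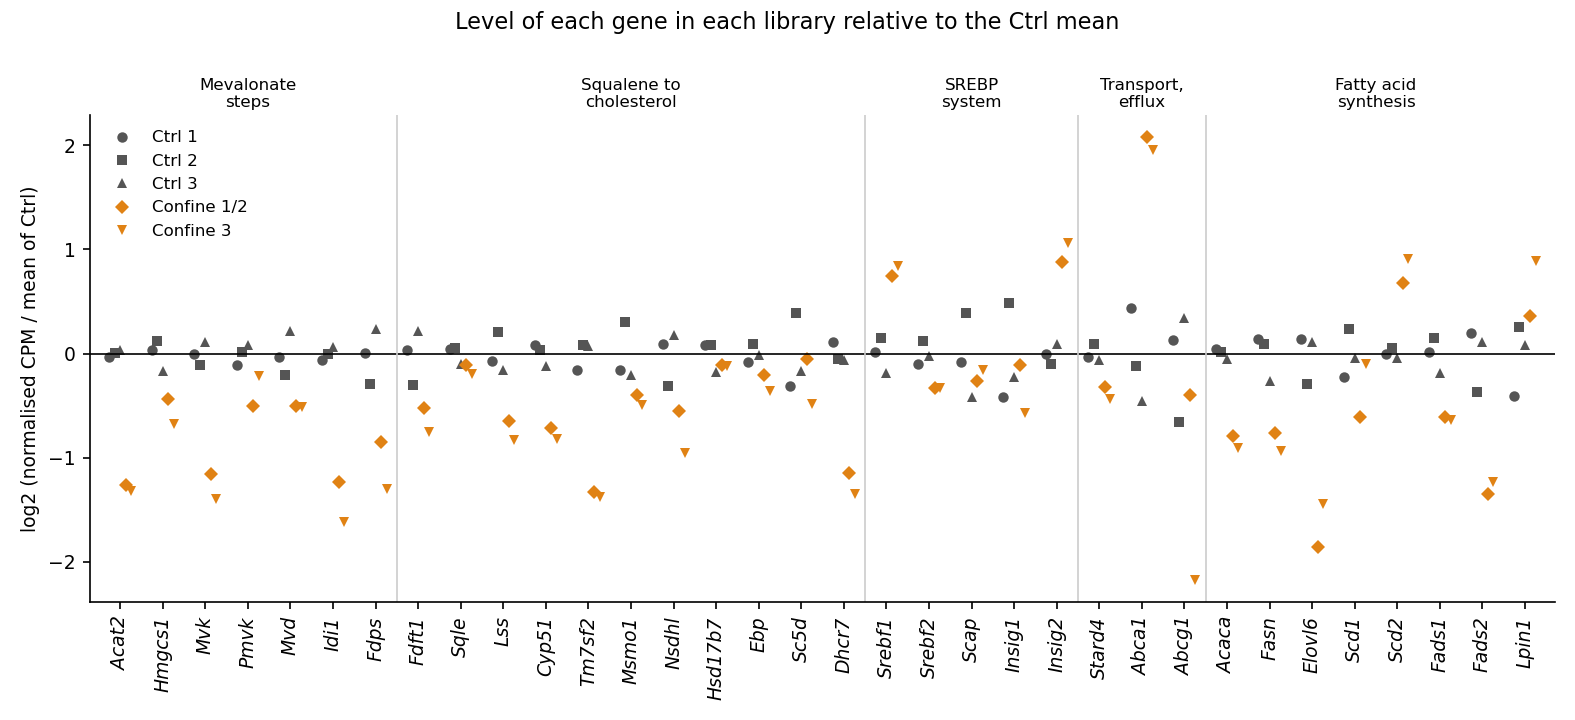
Level of each gene in each library, as log2 of normalised CPM over the Ctrl mean of that gene. Grey symbols are the 3 Ctrl libraries and orange symbols the 2 Confine libraries. The orange symbols lie below all Ctrl symbols for 16 of the 18 sterol enzymes on the left, while 49.5% of all tested genes had groups apart in either direction. For Abcg1 the lowest symbol is a library with 3 counts.

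In the mevalonate steps, 5 of 7 genes fell and the median log2 fold change was -1.05. Values per library are normalised CPM in the order Ctrl 1, Ctrl 2 and Ctrl 3, then Confine 1/2 and Confine 3. Acat2, the cytosolic thiolase that joins acetyl-CoA into acetoacetyl-CoA, was at 117, 121 and 123 CPM in Ctrl and at 50.3 and 48.1 CPM in Confine. Hmgcs1, the synthase of HMG-CoA, whose printed promoter holds the element core and a CCAAT box, was at 149, 159 and 130.2 CPM and at 108 and 91.3 CPM. Neither gene had overlapping groups, and the gap was wide for Acat2 and narrow for Hmgcs1. The log2 fold change of Acat2 was -1.29 with a standard error (SE) of 0.18 and an adjusted p of 3.74e-05, so Confine held 40.9% of the Ctrl level. Transcripts of Acat3 match Acat2 at 97.7% identity over 1477 bases, so its count is uncertain, with a mean count of 68.0 for Acat3 against 2435 for Acat2. Acat2 also matches Tcp1 on the other strand, at 98.7% identity over 445 bases, and Tcp1 had a mean count of 10937.8, so without a known strand setting reads there could belong to either gene. That of Hmgcs1 was -0.55 with an SE of 0.18 and an adjusted p of 0.0375. Hmgcs1 had the highest adjusted p of the 16 lower genes, and it did not pass without Confine 3 (adjusted p = 0.315), without Confine 1/2 (0.0953) or without Ctrl 1 (0.1001).

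Mevalonate is then phosphorylated and decarboxylated to the isoprenoid unit. Mvk, mevalonate kinase, with 4 CCAAT boxes in its printed promoter, was at 78.7, 73.1 and 85.4 CPM in Ctrl and at 35.4 and 30.1 CPM in Confine, a log2 fold change of -1.27 (SE 0.19, adjusted p = 6.76e-05). Pmvk and Mvd, which carry out the following steps, did not pass the test. Pmvk was at 65.1 to 74.2 CPM in Ctrl and at 49.3 and 60.5 CPM in Confine (log2 fold change -0.35, adjusted p = 0.188), and Mvd at 59.1 to 79.3 CPM and at 48.1 and 47.8 CPM (-0.51, adjusted p = 0.0607). For both, each Confine library was below each Ctrl library, and Mvd passed without Ctrl 2 (adjusted p = 0.0111).

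Idi1, the isomerase of the isoprenoid unit, was at 15.8, 16.5 and 17.4 CPM in Ctrl and at 7.03 and 5.40 CPM in Confine, with a log2 fold change of -1.41 (SE 0.22, adjusted p = 0.00012). Fdps, which makes farnesyl diphosphate, was at 12.0, 9.75 and 14.0 CPM and at 6.62 and 4.84 CPM, a log2 fold change of -1.05 (SE 0.25, adjusted p = 0.00405). Neither gene had overlapping groups. Fdps did not pass without Confine 3 (adjusted p = 0.0987). Both were low per length of merged exons, at 4.73 and 2.83 FPKM (CPM per kilobase of exons) in Ctrl. Their counts are uncertain, since 1124 exon bases of Fdps also belong to Gm43738 on the same strand and transcripts of Gm13502 match Idi1 at 100% identity over 684 bases. The mean counts of these partners were 5.2 and 2.6.

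From squalene to cholesterol, 6 of 11 genes fell, 5 did not pass the test and the median log2 fold change was -0.63. Fdft1, squalene synthase, was at 243, 193 and 277 CPM in Ctrl and at 166 and 141 CPM in Confine (log2 fold change -0.63, SE 0.20, adjusted p = 0.025). It shares 774 exon bases with Ctsb on the other strand, whose mean count was 33531 against 5423 for Fdft1, and the strand setting of the counting is not given in the sources used here. The call of Fdft1 was lost without Ctrl 1 (adjusted p = 0.0595), Ctrl 3 (0.0902), Confine 1/2 (0.0738) or Confine 3 (0.240). Sqle, squalene epoxidase, the next enzyme and a control point of the pathway, was at 139 to 154 CPM in Ctrl and at 138 and 130.3 CPM in Confine. Its groups did not overlap, but they nearly met, with a log2 fold change of -0.15, a 95% interval of -0.52 to 0.21 and an adjusted p of 0.585.

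Lss, which closes the sterol ring, was at 32.9, 39.9 and 31.0 CPM in Ctrl and at 22.1 and 19.4 CPM in Confine, a log2 fold change of -0.74 (SE 0.19, adjusted p = 0.00958). Cyp51, the lanosterol demethylase, was at 94.0, 90.9 and 81.6 CPM and at 54.1 and 50.2 CPM, a log2 fold change of -0.77 (SE 0.18, adjusted p = 0.00443). Tm7sf2, a sterol reductase, was at 24.8, 29.3 and 29.1 CPM and at 11.01 and 10.68 CPM, a log2 fold change of -1.35 (SE 0.20, adjusted p = 5.82e-05). All 3 genes had every Confine library below every Ctrl library, and Confine held 60.1%, 58.7% and 39.1% of the Ctrl level. Lss did not pass without Confine 3 (adjusted p = 0.156) or Confine 1/2 (0.0615), nor Cyp51 without Confine 3 (0.0873). Tm7sf2 shares 532 exon bases on the same strand with Vps51, which had a mean count of 1775.8 against 554.4, so its count is uncertain, and Cyp51 shares 166 with Akap9 on the other strand.

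Nsdhl, a dehydrogenase of the demethylation complex, was at 63.7, 48.1 and 67.8 CPM in Ctrl and at 40.7 and 30.9 CPM in Confine, a log2 fold change of -0.74 (SE 0.21, adjusted p = 0.0136). Its call did not hold without Confine 3, where the log2 fold change was -0.56. Nor did it hold with the replicate block described below and the repeated library as replicate 2 (adjusted p = 0.0655). Dhcr7, the reductase that completes cholesterol from 7-dehydrocholesterol, was at 25.3, 22.6 and 22.4 CPM and at 10.6 and 9.21 CPM, a log2 fold change of -1.24 (SE 0.20, adjusted p = 0.000167). Groups were apart in both genes, and Dhcr7 passed whichever library was left out.

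The enzymes without a call were Sqle, Msmo1, Hsd17b7, Ebp and Sc5d. Msmo1, the sterol methyl oxidase, was at 49.8 to 70.8 CPM in Ctrl and at 43.6 and 40.7 CPM in Confine (log2 fold change -0.44, adjusted p = 0.121). Ebp, the sterol isomerase, was at 120.5 to 136 CPM and at 111 and 99.7 CPM (-0.28, adjusted p = 0.288). In both, Confine lay below Ctrl. In Hsd17b7, a ketosteroid reductase, and Sc5d, the desaturase, the groups overlapped: Hsd17b7 was at 22.4 to 26.9 CPM and at 23.5 and 23.3 CPM, and Sc5d at 222 to 361 CPM and at 266 and 197 CPM. Their 95% intervals ran from -0.51 to 0.27 and from -0.71 to 0.21, so a fall to the median of the sterol enzymes was outside the interval for Hsd17b7 and inside it for Sc5d.

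In the SREBP system 2 of 5 genes rose and 3 did not pass. By edgeR 0 of the 5 fell, also at an unadjusted p under 0.05 and by DESeq2 and limma-voom. Srebf2, the gene of the SREBP of cholesterol synthesis, was at 136, 157 and 143 CPM in Ctrl and at 116 and 115 CPM in Confine, below every Ctrl library, with a log2 fold change of -0.33, a 95% interval of -0.70 to 0.04 and an adjusted p of 0.198. Srebf1 was at 19.97, 21.9 and 17.3 CPM and at 33.0 and 35.3 CPM, above every Ctrl library. Its log2 fold change was 0.79 (SE 0.19, adjusted p = 0.00409), a rise to 1.73-fold, which did not pass without Confine 3 (adjusted p = 0.0700). The counts give Srebf1 as a whole and do not separate its isoforms, and it shares 109 exon bases with Rai1 on the other strand. Scap, the escort, was at 45.8, 63.3 and 36.2 CPM and at 40.4 and 43.4 CPM, within the Ctrl range (log2 fold change -0.21, adjusted p = 0.543).

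Of the INSIG genes, Insig2 rose and Insig1 did not pass the test. Insig1, itself a target of SREBP, was at 47.8, 88.9 and 54.5 CPM in Ctrl and at 58.9 and 43.0 CPM in Confine, so the groups overlapped and Ctrl 2 stood above the rest (log2 fold change -0.32, 95% interval -0.83 to 0.18, adjusted p = 0.374). Insig2 was at 70.8, 66.3 and 75.6 CPM and at 130.2 and 148 CPM. Both Confine libraries were well above all Ctrl libraries, a rise to 1.96-fold with a log2 fold change of 0.97 (SE 0.18, adjusted p = 0.000433), which passed whichever library was left out. The ratio of Insig2 to Insig1 was 1.48, 0.745 and 1.39 in Ctrl and 2.21 and 3.44 in Confine, and that of Srebf1 to Srebf2 was 0.147, 0.139 and 0.121 and then 0.286 and 0.306. Neither ratio overlapped between groups, which for Srebf1 to Srebf2 had to follow, since Srebf1 was above and Srebf2 below every Ctrl library. The ratios were 2.40-fold and 2.18-fold higher in Confine, each with p = 0.1 by a two-sided exact permutation test over 10 splits, the smallest p that 3 against 2 libraries allow. These ratios and those of the other pairs below restate values of genes tested singly, so they are no separate support.

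**Figure D3:**
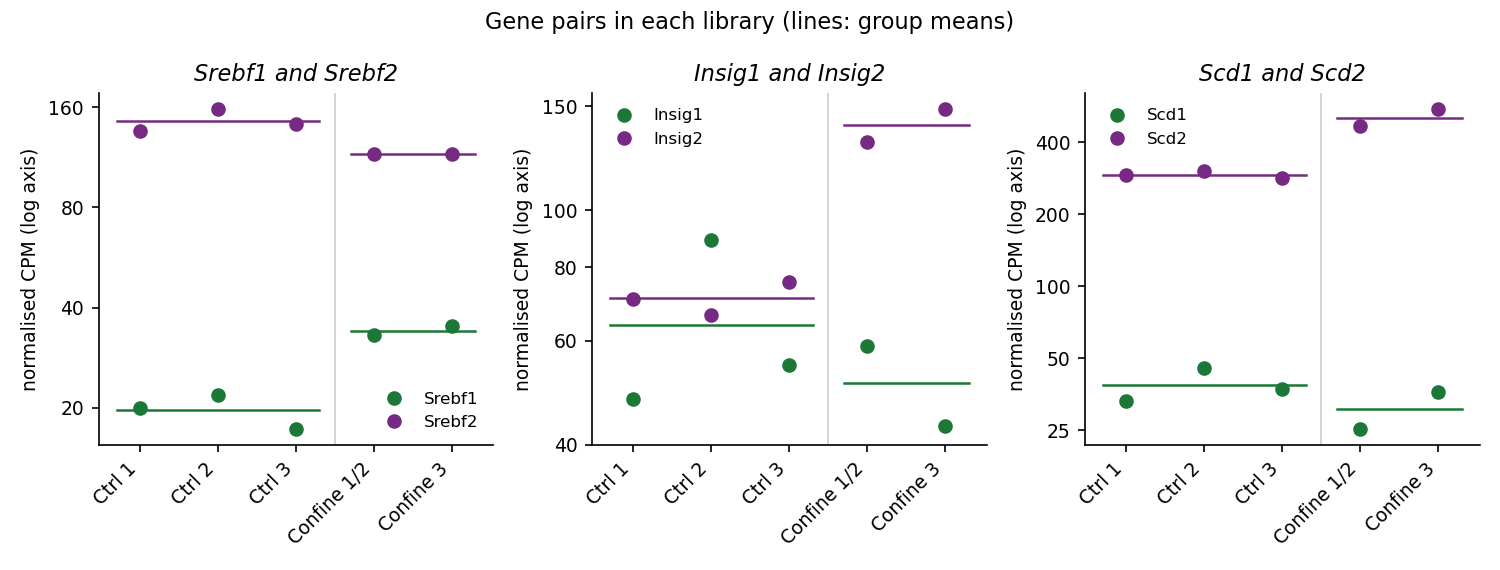
Normalised CPM on log axes in each library for 3 gene pairs, with lines at the group means. Srebf1, Insig2 and Scd2 lie higher in both Confine libraries than in any Ctrl library, and Insig1 and Scd1 overlap between groups.

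In transport and efflux, 1 of 3 genes rose and 2 did not pass. Abca1, which moves cholesterol out of the cell, had 16, 10 and 7 counts in Ctrl and 51 and 40 in Confine. In CPM it was at 0.553, 0.378 and 0.298 and at 1.72 and 1.59. It was scarcely expressed in either group, but the groups were apart, with a log2 fold change of 1.99 (SE 0.47, adjusted p = 0.00444), or 3.97-fold. Without Confine 1/2 its adjusted p was 0.0511. Abcg1, the other exporter, had 17, 9 and 16 counts and 12 and 3 counts, which overlap, and the 95% interval of its log2 fold change of -0.98 ran from -2.42 to 0.45 (adjusted p = 0.336), so the direction of its difference was not detectable at this depth. Stard4, a carrier of cholesterol within the cell and a target of SREBP, was at 85.2, 92.5 and 83.2 CPM and at 69.5 and 64.4 CPM, below every Ctrl library (log2 fold change -0.38, adjusted p = 0.143). Its unadjusted p was 0.0487. By DESeq2 and by limma-voom 0 of these 3 genes were lower, whereas Stard4 (adjusted p = 0.0284) and Srebf2 (0.0395) were lower with the identical columns as separate samples.

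In fatty acid synthesis, 5 of 8 genes fell, 2 rose and 1 did not pass, and the median log2 fold change was -0.74. Acaca, the carboxylase that makes malonyl-CoA, was at 26.6, 26.2 and 24.96 CPM in Ctrl and at 15.0 and 13.8 CPM in Confine, a log2 fold change of -0.85 (SE 0.19, adjusted p = 0.00301). Fasn, fatty acid synthase, was at 108, 104 and 81.6 CPM and at 57.8 and 51.1 CPM, a log2 fold change of -0.84 (SE 0.19, adjusted p = 0.00332). Confine held 55.6% and 55.7% of the Ctrl level, with separate groups, and neither gene passed without Confine 3 (adjusted p = 0.0686 and 0.0828). Elovl6, which lengthens the product of Fasn, was at 67.2, 49.9 and 65.9 CPM and at 16.9 and 22.4 CPM. It fell to 32.1% of Ctrl, with a log2 fold change of -1.64 (SE 0.21, adjusted p = 1.5e-05), the lowest fitted value of the 34 genes, though within about 1 SE of Idi1 and not the lowest without Confine 1/2 (-1.45). Acaca shares sequence with Gm5182, at 99.2% identity over 6118 bases, whose mean count was 16.0 against 568.6.

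The desaturases moved in both directions. Scd1 and Scd2, neighbours on chromosome 19 (44394455 to 44407879 and 44293674 to 44306864, GRCm38), place the first double bond in saturated fatty acids. Scd2 was at 291, 302 and 283 CPM in Ctrl and at 466 and 547 CPM in Confine, and Scd1 at 32.9, 45.4 and 37.3 CPM and at 25.3 and 36.0 CPM. Scd2 was above every Ctrl library in Confine, while Scd1 overlapped. The log2 fold change was 0.79 for Scd2 (SE 0.17, adjusted p = 0.00235), or 1.73-fold, and -0.33 for Scd1 (95% interval -0.77 to 0.11, adjusted p = 0.281). Without Confine 3, Scd2 had an adjusted p of 0.0515. The ratio of Scd2 to Scd1 was 8.83, 6.66 and 7.59 in Ctrl and 18.4 and 15.2 in Confine, 2.19-fold higher (two-sided exact permutation p = 0.1, the smallest possible). The transcripts match at 95.5% over 623 bases, so reads there could be assigned to either gene or dropped.

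Fads1 and Fads2, also neighbours on chromosome 19 (10182888 to 10196877 and 10062765 to 10101746), place the double bonds of long polyunsaturated fatty acids. Fads2 was at 255, 172 and 240.2 CPM in Ctrl and at 87.6 and 94.3 CPM in Confine (log2 fold change -1.29, SE 0.20, adjusted p = 0.000122), and Fads1 at 110.2, 121 and 95.4 CPM and at 71.3 and 69.8 CPM (-0.63, SE 0.18, adjusted p = 0.0191). Both had all Confine libraries below Ctrl. The Fads1 call did not hold without Ctrl 1 (adjusted p = 0.0550), Confine 1/2 (0.126) or Confine 3 (0.156). The ratio of Fads2 to Fads1 was 2.31, 1.42 and 2.52 in Ctrl and 1.23 and 1.35 in Confine. Both Confine values were lower than all Ctrl values, at 0.637 of Ctrl (two-sided exact permutation p = 0.2, where 0.1 is the smallest possible).

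Lpin1, a phosphatidate phosphatase on the way to triglyceride, was at 13.1, 20.7 and 18.3 CPM in Ctrl and at 22.3 and 32.1 CPM in Confine. The groups were apart by little, and the log2 fold change was 0.65 (SE 0.22, adjusted p = 0.0432). The call was lost without Confine 3, where the log2 fold change was 0.36. It was lost without Ctrl 1 (adjusted p = 0.209) and when scaled by library size alone (0.171). It was also lost with the identical columns as separate samples (0.0674), and with the replicate block described below and the repeated library as replicate 2 (0.305).

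**Figure D4:**
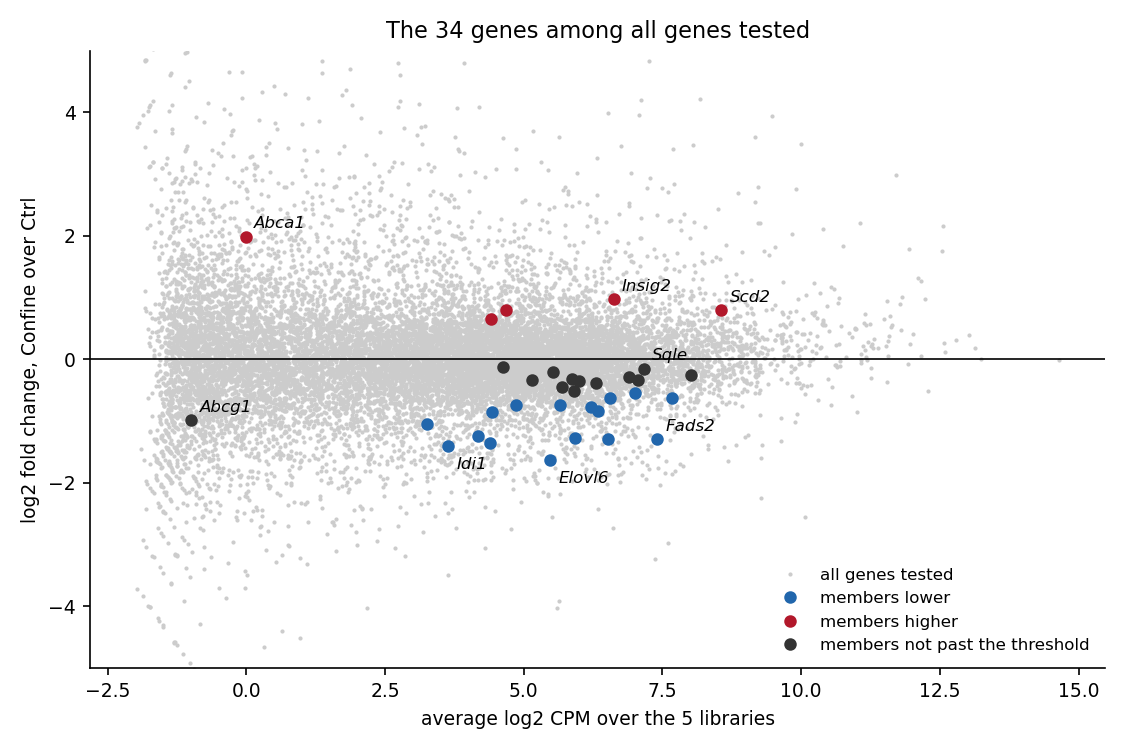
Log2 fold change of Confine over Ctrl against average log2 CPM over the 5 libraries for all 15881 tested genes (grey), with the 34 genes in colour; 65 genes lie beyond the limits of 5 on the vertical axis. The lower members (blue) lie at middle levels of expression among many other genes with like fold changes, and Abca1 and Abcg1 lie at its left edge.

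Per length of merged exons, the genes covered a wide range. Merged exons can be much longer than a transcript, as for Acaca (17074 bases against 9513 in its longest transcript), so the order of genes depends partly on the annotation. In Ctrl the highest mean level was that of Fads2, at 67.5 FPKM, followed by Sc5d (56.7), Fdft1 (56.3), Ebp (55.3) and Scd2 (53.4), which did not differ beyond the spread of Sc5d between libraries. In Confine the order changed to Scd2 (92.7 FPKM), Sc5d (47.5), Ebp (45.6) and Insig2 (40.1), with Fads2 at rank 7 (27.6 FPKM). The lowest in either group were Abca1 (0.0395 and 0.160 FPKM) and Abcg1 (0.0734 and 0.0359 FPKM). Insig2 and Insig1 had nearly the same mean in Ctrl, 20.4 and 20.6 FPKM, and means of 40.1 and 16.5 FPKM in Confine. Single Ctrl libraries differed, with Insig2 at 20.4, 19.1 and 21.8 FPKM and Insig1 at 15.4, 28.8 and 17.6 FPKM. Srebf2 was above Srebf1 in both groups, at 20.2 and 3.50 FPKM in Ctrl and 16.1 and 6.06 FPKM in Confine.

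Genes beside these pathways were read from 6 further lists, of which 58 of 65 genes were tested. Across them 4 (6.90%) were lower and 14 (24.1%) higher, with a median log2 fold change of 0.02, beside 10.2% lower and 12.8% higher among all tested genes. These 2 shares also stand behind the counts of each list that follows. Among 9 genes of SREBP cleavage and INSIG turnover, which include the site proteases Mbtps1 and Mbtps2, 0 were lower by edgeR (1 at an unadjusted p under 0.05, 0 by DESeq2 and by limma-voom) and 1 was higher. This was Pgrmc1, a haem-binding partner of INSIG and SCAP, at 138, 109 and 117 CPM in Ctrl and at 195 and 188 CPM in Confine (log2 fold change 0.66, adjusted p = 0.0109). It did not pass with either Confine library left out (adjusted p up to 0.0929). With Ctrl 2 or Ctrl 3 left out, 1 gene of this list was lower.

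Of 9 LXR and oxysterol genes, 5 were tested and 2 were higher. Nr1h2, which encodes LXR beta, was at 69.1, 45.6 and 74.7 CPM in Ctrl and at 103 and 112 CPM in Confine (log2 fold change 0.77, adjusted p = 0.0108). Arl4c was at 20.8, 30.5 and 19.9 CPM and at 43.6 and 55.9 CPM (1.07, adjusted p = 0.000991). Each had separate groups, and Nr1h2 did not pass with either Confine library left out (adjusted p up to 0.128). Nr1h3, Mylip and Lpcat3, the other 3 tested, did not pass, with log2 fold changes of -0.18, -0.01 and -0.14.

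In the handling of cholesterol outside synthesis, 5 of 13 tested genes were higher and 1 was lower. Vldlr, a lipoprotein receptor, was at 4.25, 5.03 and 3.70 CPM in Ctrl and at 10.3 and 16.0 CPM in Confine (log2 fold change 1.60, adjusted p = 0.000107). Soat1, which esterifies cholesterol for storage, was at 73.2, 97.9 and 65.2 CPM and at 211 and 210.1 CPM (1.42, adjusted p = 2.57e-05). Nceh1, which hydrolyses cholesteryl ester, was at 8.67, 9.11 and 11.1 CPM and at 4.26 and 5.80 CPM (-0.94, adjusted p = 0.0096). All 3 had separate groups, and Vldlr and Soat1 passed whichever library was left out, while Nceh1 did not pass without Confine 1/2 (adjusted p = 0.151). Without Confine 3, 3 of the list were higher.

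Beside the fatty acid enzymes, 4 of 16 tested genes of precursor supply and glycerolipid synthesis were higher and 1 was lower. Dgat2, which makes triglyceride, was at 4.32, 3.89 and 3.10 CPM in Ctrl and at 17.4 and 24.3 CPM in Confine (log2 fold change 2.46, adjusted p = 4.43e-07). Acss2, which makes acetyl-CoA from acetate and is a known SREBP target, was at 3.73, 4.69 and 2.13 CPM and at 6.52 and 13.3 CPM (1.49, adjusted p = 0.00246). Both had separate groups, so this target moved against most of the synthesis genes, although its call rested on Confine 3 (adjusted p = 0.171 without it). Elovl5, an elongase of polyunsaturated fatty acids, was at 43.0, 40.5 and 36.5 CPM and at 28.8 and 24.1 CPM (-0.60, adjusted p = 0.0277), and its adjusted p reached 0.296 with a library left out.

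In the isoprenoid branch, which uses the products of the mevalonate steps, 1 of 12 genes was lower and 2 were higher. Pdss1, which builds the side chain of ubiquinone, was at 25.2, 15.4 and 17.1 CPM in Ctrl and at 9.43 and 9.05 CPM in Confine (log2 fold change -1.06, adjusted p = 0.00281). Rabggta, a subunit that attaches prenyl groups to Rab proteins, was at 22.7, 18.3 and 23.6 CPM and at 52.5 and 59.8 CPM (1.39, adjusted p = 2.25e-05), and Nus1, a subunit of the enzyme of dolichol synthesis, had a log2 fold change of 0.63 (adjusted p = 0.0203). Rabggta passed whichever library was left out, whereas Pdss1 reached an adjusted p of 0.0509 and Nus1 0.187. Of 3 other tested sterol genes, Lbr, a nuclear membrane protein that can carry out the same sterol reduction as Tm7sf2, was lower, at 33.5, 38.9 and 25.7 CPM and at 19.4 and 18.1 CPM (-0.80, adjusted p = 0.00794). Its adjusted p reached 0.115 with a library left out.

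**Figure D5:**
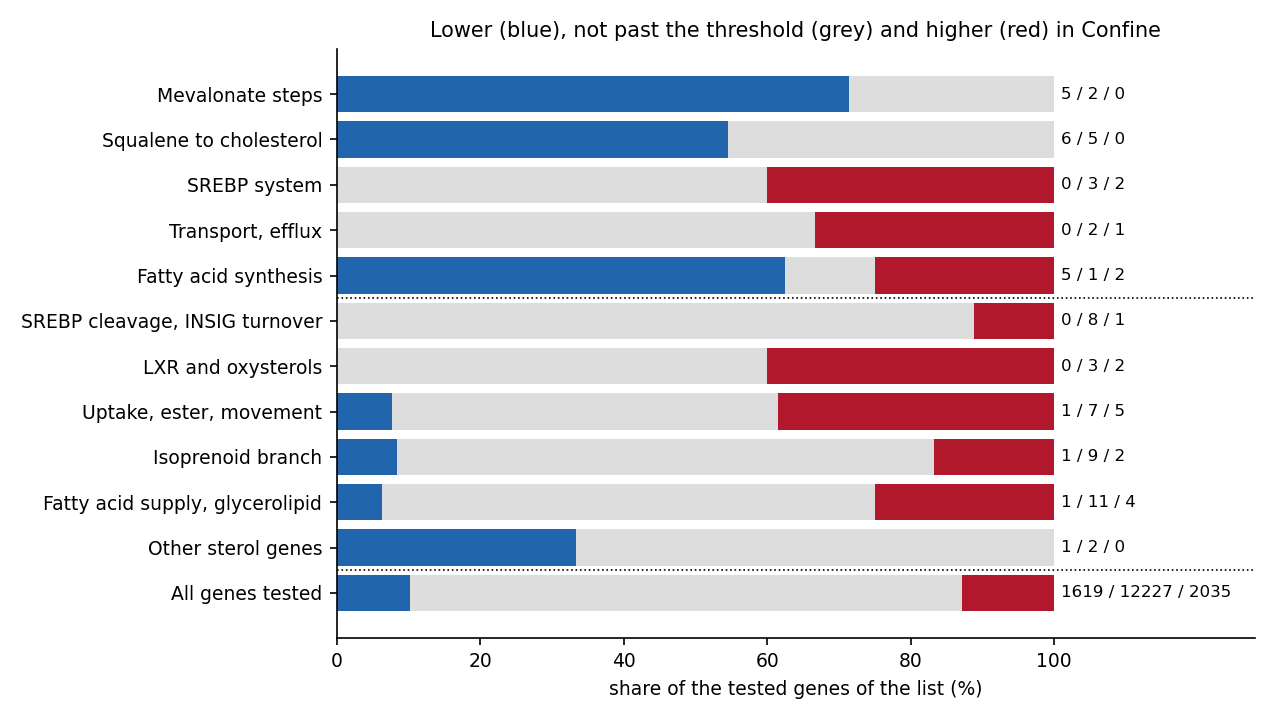
Share of the tested genes of each list that were lower (blue), not past the threshold (grey) and higher (red) in Confine, with the counts in that order at the right. The sterol and fatty acid groups hold the longest blue bars, and all tested genes, at the foot, hold 1619 lower and 2035 higher genes.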

How the data were processed

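The authors deposited counts, whole reads per Ensembl gene without normalization, for 3 Ctrl and 3 Confine samples. The labels describe poly(A) selection and removal of the dUTP-marked second strand. The submitters' processing notes name Trim Galore 0.6.10, HISAT2 2.1.0, SAMtools 1.5, featureCounts and mm10; the strand setting and annotation release are not given in the sources used here, and they decide how reads on shared or near-identical exons were counted or dropped.

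Of 55335 gene identifiers, 55154 matched GENCODE M21 (GRCm38) without their version, which gave symbols, positions and merged exon lengths. Identical Confine columns were counted as 1 library, giving 3 against 2. Columns not used numbered 0. Genes kept by filterByExpr (15881) were scaled by TMM (factors 0.910 to 1.08). Groups were compared by edgeR's quasi-likelihood test (edgeR 4.0.16, R 4.3.3), with no replicate block and with Benjamini-Hochberg adjustment over all tested genes. Residual degrees of freedom were 3, and prior ones had a median of 14.8. An adjusted p under 0.05 was a call; the absolute log2 fold change above 1.5 used in the study was added as a second rule. SE is the log2 fold change over the root of the F statistic, and intervals are 95%. CPM (counts per 1000000) refer to the TMM-scaled library, and FPKM is CPM per kilobase of merged exons. Intervals and floors cover counting error and the spread between these libraries only. Matching transcripts were searched with blastn 2.17.0 in GENCODE M21 (at least 95% identity over 200 bases).

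All 34 genes are accounted for, with the value in every library where called or in the SREBP, transport and efflux groups; of the further lists, all called genes were named where up to 4 were called, otherwise the 2 with the largest change in each direction. The members and lists were chosen with earlier results of these data known. The script was tested on simulated counts, with changes set only in genes above a minimum mean count. It recovered 74% of 2-fold and 99% of 4-fold changes, and 3.35% of its calls were false. A gene that did not pass is therefore not shown to be unchanged. The alternatives were DESeq2 1.42.0, limma-voom (limma 3.58.1), other scalings and filters, the replicate block, the identical columns as separate samples, and leaving out each library. All other experiments of the study were left out.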

Additional observations from a re-analysis of the deposited data

How the results depend on the processing

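Under DESeq2's size factors, the upper quartile, no filter on low counts and limma-voom, all 34 genes kept their direction and their side of the threshold; DESeq2 added Mvd (22 calls). With at least 10 counts in every library, Abca1 and Abcg1 were not tested and the other 32 genes kept theirs. Leaving out each library in turn moved the number of lower genes between 7 and 17 and of higher genes between 2 and 5; 9 calls were kept without Confine 3. With the identical columns as separate samples 25 genes passed. With the fold change cutoff, 1 gene was lower and 1 higher. The median log2 fold change was -0.68 over the sterol enzymes and -0.74 over the fatty acid genes; it was -0.89 and -0.95 with library size alone, and with a library left out it ranged from -0.79 to -0.54 and from -0.81 to -0.67. Scap, which did not pass, ranged from -0.40 to 0.026 and turned sign without Ctrl 2.

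The repeated Confine library has no certain replicate number, so a replicate block was fitted with it as replicate 1 or as replicate 2. The difference between Ctrl libraries correlated with that between the same-numbered Confine libraries at 0.05 and -0.05 across genes. A single difference per group cannot show whether same-numbered samples share more than a number, so a pairing was neither shown nor excluded. As replicate 2, 12 genes were lower and 4 higher (2528 of all genes called), with medians of -0.64 and -0.68. The calls lost there were those of Hmgcs1 (adjusted p = 0.180), Fdft1 (0.121), Nsdhl (0.0655), Fads1 (0.113) and Lpin1 (0.305). As replicate 1, 17 were lower and 5 higher (4933 of all genes), the fatty acid median was -0.66 and Scap was at 0.038. The block left 1 residual degree of freedom.

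Depth limits Abca1 and Abcg1, which held 3 to 51 counts per library. Without Confine 3, in a comparison of 3 libraries against 1, 12 of the 21 calls were lost. All 12 kept their direction at a smaller fitted fold, some nearly as large (Fads1 -0.61, Cyp51 -0.72, Acaca -0.79, Srebf1 0.74) and others less so (Nsdhl -0.56, Lpin1 0.36).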
